A study of Homo sapiens with 20 samples.

Results

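The response described here is that of B5/589 cells to the lower of 2 inducing doses at the earlier of 2 times: 4 arrays of cells given 3 ng doxycycline for 12 h were set against the 4 arrays of cells given no doxycycline, which were taken at 24 h. B5/589 is an immortalized human mammary epithelial line that the labels say carries an inducible p53 transgene, and all groups, the uninduced one included, carry it. Members were chosen by the dose and time in the sample labels, which gave 8 of the 20 arrays. The other 12 arrays are of 3 ng at 24 h, 5 ng at 12 h and 5 ng at 24 h, with 4 arrays in each group. Doses are given in ng with no volume. The labels name no promoter and no clone number for the transgene, and the labels do not say whether arrays of 1 group stem from different cultures, so p-values measure the spread between these arrays, which may be technical. All cells were grown with serum and EGF, plated 12 to 24 h before induction, and given fresh medium, with or without doxycycline, every 24 h. Because uninduced cells were taken only at 24 h, the first comparison differs in time in culture as well as in p53 dose, and these cannot be told apart.

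p53 is a transcription factor that binds, as a tetramer, to response elements made of pairs of half-sites, and raises transcription of genes for cell cycle arrest, apoptosis, DNA repair and its own inhibition. Its arrest target CDKN1A encodes p21, an inhibitor of cyclin-dependent kinases. Once these kinases are held back, pocket proteins such as RB stay bound to E2F factors and keep S phase genes low, and the DREAM complex keeps genes of G2 and mitosis low through CHR elements. Targets are therefore known to answer p53 directly, and cell cycle genes mainly through p21.

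Values are log2 signals of whole-transcript arrays, so 1 unit is a 2-fold difference. They were tested as deposited with limma, with the Benjamini-Hochberg adjusted p over 18417 genes and a threshold of 0.05, and once more after quantile normalization of all 20 arrays. The second scale is given beside the first because array brightness was unequal: the median log2 signal over all transcript clusters was 4.92, 5.54, 4.77 and 5.38 on the 4 arrays of 3 ng at 12 h and 5.08, 4.94, 4.99 and 5.28 on the uninduced arrays. Replicates 2 and 4 of the induced group had the highest medians of the 8 arrays. Replicate arrays correlated at 0.992 to 0.994 across genes. The transgene's own transcript was not analysed here. The cells carried epithelial transcripts: KRT5, a basal keratin, was at 11.75 ± 0.17 and CDH1, E-cadherin, at 9.58 ± 0.31 (SD, n = 4) in uninduced cells, while PTPRC, the leukocyte surface marker CD45, was at -0.34 ± 0.07, PECAM1, an endothelial marker, at 1.76 ± 0.24 and VIM, vimentin, at 2.82 ± 0.28. Other markers of mesenchymal cells were high, among them FN1, fibronectin, at 12.62 ± 0.20 and CDH2, N-cadherin, at 8.77 ± 0.25, as was CD68, a marker of macrophages, at 8.82 ± 0.21. Over the uninduced arrays the mean level of 16 mesenchymal markers ran from 4.68 to 4.99 and that of 12 immune and endothelial markers from 3.35 to 3.71, and over the arrays of 3 ng at 12 h from 4.44 to 5.11 and from 3.29 to 4.01.

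At 12 h of 3 ng, 290 genes were higher (1.57% of those tested) and 229 lower (1.24%) than in uninduced cells by limma's adjusted p. After quantile normalization 1218 were higher (6.61%) and 1579 lower (8.57%), and 289 of the rises and 222 of the falls passed on both scales with 1 direction. The balance of the 2 directions moved with the scaling: rises were 55.9% of calls as deposited, 43.5% after quantile normalization and 15.4% where each array was centred on its median, with 557 rises and 3063 falls. Centring moved the median of all genes from -0.04 to -0.12. Rises were larger: 131 genes rose by at least 2-fold and 34 fell by at least 2-fold, against 155 and 23 after quantile normalization. Leaving out single arrays left between 187 and 328 rises but between 31 and 2476 falls as deposited, and the highest of these is without replicate 2 of 3 ng at 12 h. Without the bright replicates 2 and 4 there were 236 rises and 5668 falls. With quantile normalization the falls without single arrays ran from 1028 to 1633. Gene list counts are therefore given on both scales. The 4 induced and 4 uninduced arrays did not overlap for 4.21% of genes as deposited, 2.24% with the induced arrays higher and 1.97% lower, and after quantile normalization for 7.35% higher and 10.2% lower.

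The p53 targets best known from the field split into genes that rose at 12 h of this dose on both scales, genes whose call depended on the scale, and genes with no call. Of the 111 genes measured on 5 lists of p53 targets, 37 rose and none fell as deposited, where 1.57% of all genes rose, at a median of 0.33 against -0.04 over all genes. After quantile normalization 79 rose, where 6.61% of all genes did, and 2 fell, LPIN1 and FANCC, at a median of 0.50 against -0.02. In a panel of 14 classic targets, 7 rose on both scales (TP53I3, TP53INP1, SESN1, APAF1, GDF15, CDKN1A and FAS), 5 were called after quantile normalization alone (MDM2, TNFRSF10B, BAX, SFN and GADD45A) and 2 were called on neither (BBC3 and PMAIP1).

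TP53I3, a quinone oxidoreductase linked to p53-dependent oxidative stress, read 8.05, 7.71, 7.90 and 8.18 on the uninduced arrays and 10.57, 10.75, 10.50 and 10.90 after 12 h of 3 ng. The lowest induced array lay far above the highest uninduced one. The difference was 2.72 ± 0.14 (SE), or 6.59-fold, with an adjusted p of 5.73e-11 by limma.

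TP53INP1, a nuclear protein that aids p53 phosphorylation and apoptosis, read 6.33, 6.02, 5.83 and 6.35 uninduced and 7.75, 8.0, 7.53 and 8.23 induced, again without overlap. It was 3.35-fold higher (log2 1.75 ± 0.16 SE). SESN1, a sestrin that restrains mTORC1 and limits oxidants, went from 7.17, 6.82, 6.67 and 7.50 to 8.42, 9.12, 8.57 and 8.86. Here too every induced array was above every uninduced one, by 3.26-fold on average (log2 1.70 ± 0.18 SE). APAF1, the scaffold of the apoptosome that activates caspase-9, went from 7.70, 7.58, 7.12 and 7.80 to 8.91, 9.41, 8.85 and 9.31. The groups did not overlap and the difference was 2.97-fold (adjusted p = 2.02e-06, limma).

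CDKN1A itself moved less than these. It read 8.58, 8.47, 8.43 and 8.99 in uninduced cells and 9.39, 9.82, 9.41 and 9.70 after 12 h of 3 ng, a difference of 0.96 ± 0.14 (SE) or 1.95-fold (adjusted p = 0.000265, limma) and 1.22 after quantile normalization. GDF15, a secreted stress cytokine, was already high at 10.28 ± 0.33 (SD, n = 4) and rose by 1.27 to 11.55 ± 0.15. FAS, the death receptor for FAS ligand, rose from 8.57 ± 0.29 to 9.43 ± 0.29, by 0.86 (adjusted p = 0.0037), a call that was not made when only the 8 arrays of both groups were fitted.

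MDM2, the ubiquitin ligase that removes p53, read 12.15, 12.05, 11.72 and 12.42 uninduced and 12.26, 12.63, 12.18 and 12.57 induced. The groups overlapped as deposited, with a difference of 0.33 ± 0.15 (SE) and an adjusted p of 0.231. After quantile normalization the groups no longer overlapped and the difference was 0.53 (adjusted p = 1.24e-06, limma). The same held for TNFRSF10B, a TRAIL receptor, at 0.30 as deposited and 0.56 after quantile normalization, for BAX, the pore former of the mitochondrial outer membrane, at 0.26 and 0.50, for SFN, the 14-3-3 sigma protein that sequesters cyclin B complexes, at 0.20 and 0.42, and for GADD45A, a stress adaptor protein, at 0.20 and 0.44. These 5 genes start at 8.90 to 12.09, well above the array median. Over the 6139 brightest genes the median difference was -0.25 as deposited and -0.04 after quantile normalization. GDF15 also started within this range and was called on both scales. The SE changed too, for MDM2 from 0.15 as deposited to 0.053 after quantile normalization. Why the calls of these 5 genes differed between the scales was not tested. The BH3-only proteins BBC3 (PUMA) and PMAIP1 (NOXA) had no call on either scale. PMAIP1 read 8.90, 8.40, 8.21 and 8.82 uninduced and 8.51, 8.91, 8.19 and 8.53 induced, and its difference of -0.05 turned to 0.18 after quantile normalization.

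**Figure D1:**
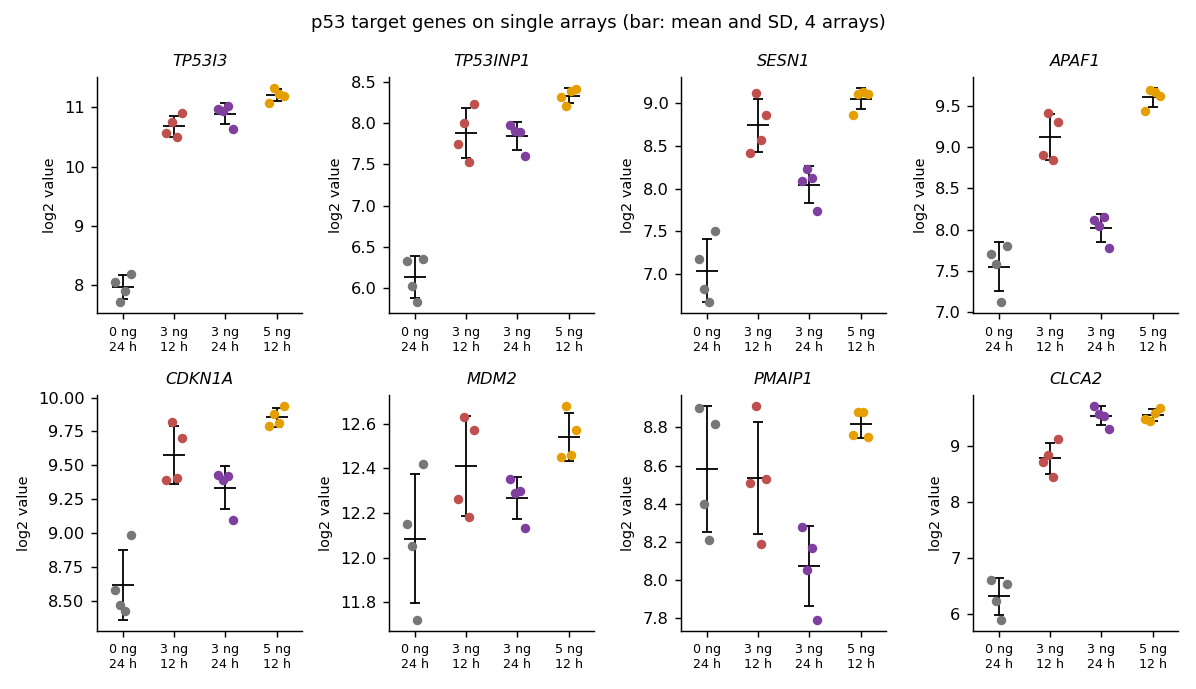
Log2 values of 8 p53 target genes on each array, as deposited, in 4 groups of 4 arrays; black bars give the mean and SD. TP53I3, TP53INP1, SESN1, APAF1, CDKN1A and CLCA2 at 3 ng and 12 h lie wholly above the uninduced arrays, while MDM2 and PMAIP1 overlap them; APAF1 and SESN1 are lower at 24 h than at 12 h of 3 ng.

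By role, the shares of rises differed with the scale, and of all genes 1.57% rose as deposited and 6.61% after quantile normalization. Of 13 arrest targets measured, 2 rose and none fell as deposited: CDKN1A and ZNF385A, a zinc finger protein that steers p53 towards arrest genes, at 1.03 ± 0.13 (SE). After quantile normalization 9 of 13 rose, and the list's median was 0.20 as deposited and 0.43 quantile-normalized. Among 27 apoptosis targets, 8 rose and none fell (18 after quantile normalization); besides TP53I3, TP53INP1 and APAF1 the largest was PIDD1, the death-domain protein of the PIDDosome, which went from 6.80 ± 0.22 to 8.21 ± 0.20 (SD, n = 4), a difference of 1.41. Of 12 genes on the list called feedback regulators 3 rose as deposited and 6 after quantile normalization. The list's name does not give the role of each member, and MDM2 had no call as deposited. CDIP1 rose by 1.08, TP73, a p53 paralog, by 0.96, and TRIM22 by 0.73, but TRIM22's call was lost when any 1 of 4 arrays was left out (replicates 1 and 4 of 3 ng at 12 h, replicates 2 and 3 of the uninduced group).

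Of 24 repair and metabolism targets 9 rose, led by SESN1, GDF15, RRM2B, a p53-inducible subunit of ribonucleotide reductase (0.97 ± 0.19 SE), and POLH, the translesion polymerase eta (0.94 ± 0.16 SE). After quantile normalization 16 of these 24 rose, and of all genes 1.57% rose as deposited and 6.61% on that scale. The damage-recognition genes of nucleotide excision repair on this list, DDB2 at 0.24 and XPC at 0.46, passed only after quantile normalization, at 0.46 and 0.61. Among 35 other direct targets 15 rose as deposited and 30 after quantile normalization. ABCA12, a lipid transporter of keratinocytes, was the largest at 1.98 ± 0.18 (SE): it read 7.10, 6.50, 6.35 and 7.13 uninduced and 8.57, 8.89, 8.34 and 9.18 induced. ANKRA2, an ankyrin repeat protein, followed at 1.71, RALGDS, an exchange factor for Ral, at 1.25, and CEL, a bile salt-stimulated lipase, at 1.13. All 4 had groups that did not overlap, as did 413 genes in this direction overall.

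**Figure D2:**
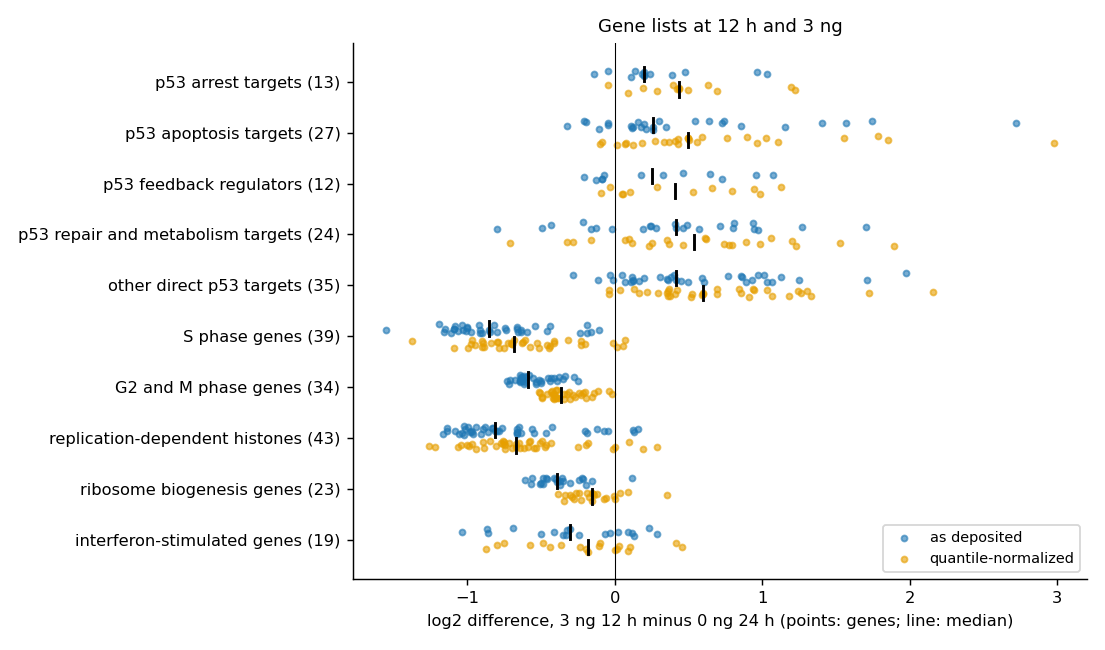
Each point is 1 gene's log2 difference between 3 ng at 12 h and uninduced cells, as deposited (blue) and quantile-normalized (orange), for 10 lists with the number of measured genes in brackets; black lines are medians. The 5 p53 target lists have medians above 0 and the S phase, G2 and M and histone lists have medians below 0 on both scales, with the p53 lists shifted to the right by quantile normalization.

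Promoter sequences from RefSeq (GRCh38.p14), from 250 bases before to 50 bases after a gene's start, were searched for p53 half-sites, written RRRCWWGYYY, and for full sites of 2 half-sites up to 13 bases apart. Of 96 genes on the p53 lists with a window, 19 held a half-site (19.8%), against 8.19% of all 14239 tested genes with a window. Of the 31 that rose and had a window 5 did (16.1%), and of all 235 risen genes with a window 36 did (15.3%). The only full site on these lists was in DDB2, just after its start. A match is a description of the letters in this window and not a site of binding, and many known p53 elements lie outside such windows. The matches are shown for DDB2 and for 3 of the named targets that rose; RALGDS also holds one. They are written 5′ to 3′ on the gene's strand, with the 10-base half-sites in capitals.
DDB2 (chr11:47214979-47214999, plus strand, 5 to 25 bases after the start): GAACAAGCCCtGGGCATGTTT
SESN1 (chr6:109009008-109009057, minus strand): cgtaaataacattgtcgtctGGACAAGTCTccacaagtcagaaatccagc
FAS (chr10:88991289-88991338, plus strand): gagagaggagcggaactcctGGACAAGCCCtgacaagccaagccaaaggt
ABCA12 (chr2:215138679-215138728, minus strand): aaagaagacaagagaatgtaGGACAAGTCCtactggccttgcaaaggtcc
DDB2, with the full site, rose by 0.24 as deposited without a call, whereas ABCA12, with a single half-site, rose by 1.98.

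Most of the largest rises were of genes below the median signal in uninduced cells, with LCE1C, CLCA2 and TP53I3 above it. CRYAB, the small heat shock protein alpha-B-crystallin, read 3.26, 3.52, 3.65 and 4.64 uninduced and 7.08, 7.60, 7.34 and 8.23 after 12 h of 3 ng. Its 4 induced arrays all lay well above the uninduced ones, at a 13.9-fold difference (log2 3.80 ± 0.26 SE, adjusted p = 4.42e-09, limma). LCE1C, a late cornified envelope protein of the skin barrier, read 6.72, 5.42, 5.20 and 6.20 and then 9.58, 9.48, 9.54 and 10.07, or 13.8-fold higher. LCE1B of the same cluster rose by 2.96 ± 0.18 (SE), and because the LCE1 genes are near-identical copies their probes may share signal. AKR1B10, an aldo-keto reductase of retinal and lipid aldehydes, rose by 3.63 from 2.46 ± 0.45 (SD, n = 4). The deposited table has no detection calls, so differences of genes that start this low may be understated by background signal.

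PTPN22, a tyrosine phosphatase best known from lymphocytes, read -0.65, 0.54, 0.84 and 1.72 uninduced and 3.70, 4.42, 3.52 and 4.44 induced, and BLNK, an adaptor of B cell receptor signalling, 3.63, 3.02, 3.27 and 3.18 and then 6.22, 6.50, 6.04 and 6.96. The groups did not overlap for either gene, with differences of 3.41 ± 0.37 and 3.16 ± 0.18 (SE). The uninduced level of PTPN22 is in the range of PTPRC and PECAM1, so its difference is only roughly measured. Of 12 markers of immune and endothelial cells, 10 were above 0 as deposited, at a median of 0.17, and 8 after quantile normalization, at a median of 0.06. The 6139 dimmest genes had a median of 0.145 as deposited and 0.01 after quantile normalization. As deposited 1 marker rose and none fell, while 1 rose and 1 fell after quantile normalization. The deposited rise was of ITGAM, an integrin of myeloid cells, at 0.86, which was not called when only the 8 arrays of both groups were fitted. The part of such cells in these rises was not tested. FAM13C went from 3.43 ± 0.12 to 6.52 ± 0.30 (SD, n = 4), a rise of 3.09 with the same adjusted p as TP53I3, and ELOVL2, an elongase of polyunsaturated fatty acids, rose by 3.09 ± 0.30 (SE). The other members of the 15 largest rises were C2orf66 (3.49), PALMD, palmdelphin (2.79), CDH10, a classical cadherin (2.68), PLEKHG1 (2.66), DNAI3, a dynein intermediate chain (2.64), and CLCA2, a p53-responsive regulator of chloride currents and adhesion (2.47). All 15 were chosen among genes called on both scales without overlap of the groups, so these traits are not results. As deposited, all 15 were also called when any single array was left out. BLNK's promoter window holds half-sites that begin at -184 and -11 from the start, shown because few of the leaders have a match.
BLNK (chr10:96271724-96271773, minus strand): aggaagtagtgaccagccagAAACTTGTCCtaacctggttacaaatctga
BLNK (chr10:96271570-96271600, minus strand): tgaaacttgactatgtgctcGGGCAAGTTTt

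Of 8 genes that lead the response at 24 h in earlier results of these arrays, all 8 had already risen at 12 h of 3 ng, by 2.14 (PLA2G10, a secreted phospholipase) to 3.80 (CRYAB), at a median of 2.88. That list was chosen on comparisons that share the uninduced arrays, so it is not independent evidence of direction. Of 22 keratinocyte differentiation genes 3 rose as deposited, against 1.57% of all genes: LCE1F by 1.57 ± 0.15 (SE), FLG, filaggrin, by 1.08 ± 0.18, and GRHL3, a transcription factor of the epidermal barrier, by 0.81 ± 0.17. GRHL3 was not called when only the 8 arrays of both groups were fitted. None fell as deposited, and after quantile normalization 8 rose and 1 fell. As deposited 1 of 7 basal markers rose (MYLK, myosin light chain kinase, 0.82, not called without replicate 4 of 3 ng at 12 h), and no call was made among 15 luminal and 16 mesenchymal markers. After quantile normalization 4 of 7 basal markers rose, where 6.61% of all genes did, 1 luminal marker rose and 1 mesenchymal marker fell.

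S phase genes and histone genes were lower at 12 h. All 39 S phase genes measured were below 0 as deposited, at a median of -0.85, and 22 fell by limma's adjusted p, where 1.24% of all genes did. After quantile normalization 29 fell, where 8.57% of all genes did, at a median of -0.68. As deposited the count ran from 8 to 34 when single arrays were left out, the highest again without replicate 2 of 3 ng at 12 h, and after quantile normalization from 23 to 30. Falls over all 18417 genes ran from 31 to 2476 and from 1028 to 1633 in these fits. CCNE2, cyclin E2, which drives CDK2 at the start of S phase, had the largest fall of any gene that met the naming rule. It read 8.63, 8.38, 8.06 and 8.89 uninduced and 6.42, 7.96, 6.55 and 6.84 after 12 h, where replicate 2 of the induced group stands above the other 3 but below every uninduced array. The difference was -1.55 ± 0.28 (SE), or 2.92-fold lower (adjusted p = 0.00298, limma).

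CCNE1, cyclin E1, fell by 1.08 on the log2 scale, from 7.46, 7.21, 7.52 and 7.84 to 6.10, 6.84, 6.26 and 6.50. UNG, the uracil-DNA glycosylase, fell from 8.79, 8.71, 8.68 and 9.17 to 7.12, 8.34, 7.42 and 7.62 (-1.21 ± 0.22 SE). MCM3, a subunit of the replicative helicase, went from 9.41, 9.20, 9.12 and 9.74 to 7.87, 9.0, 7.81 and 8.36 (-1.11 ± 0.22 SE). In these 3 genes too, replicate 2 was the highest induced array and no groups overlapped. ORC1, of the origin recognition complex, changed by -1.09, PRIM1, the primase subunit, by -1.09, and FBXO5, EMI1, which inhibits the anaphase-promoting complex, by -1.16. UNG and FBXO5 are not on the S phase list. UHRF1, which brings DNA methyltransferase to new DNA, changed by -1.16 in its brightest transcript cluster and by -0.42, without a call, as the mean of its clusters. DTL, of the CRL4 ligase that degrades CDT1, changed by -1.19, and POLE2, a subunit of polymerase epsilon, by -1.15.

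Calls among the falls leaned on single arrays more than calls among the rises. DTL and POLE2 each lost their call as deposited when any 1 of 6 arrays was left out, FAM111B, a protease of replicating cells (-1.25), with any 1 of 4, ORC1 with any 1 of 3 and PRIM1 with any 1 of 2. All 5 were called after quantile normalization, but members of the 15 largest falls were chosen on that condition. CCNE1, CCNE2, UNG, MCM3, FBXO5, WDR76, H2AC15 and LRIG3, a membrane protein (-1.16), kept theirs in each such fit. The rest of the 15 largest falls were EVI2B (-1.42), the histone gene H2AC15 (-1.16), CHN1, a GTPase-activating protein for Rac (-1.15), WDR76 (-1.11) and TIFA, an adaptor of TRAF signalling (-1.06). EVI2B, CHN1 and TIFA lost their calls when any 1 of 6 arrays was left out.

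Replication-dependent histone genes, whose transcripts are made in S phase and lack a poly(A) tail, followed the S phase list. Of 43 measured, 15 fell as deposited and 28 after quantile normalization, where 1.24% and 8.57% of all genes did. None rose, and the medians were -0.81 and -0.67. H2AC15 read 8.15, 8.24, 7.74 and 8.61 uninduced and 6.66, 7.68, 6.68 and 7.07 induced. H4C13 changed by -1.05, H2AC17 by -1.14 and H3C12 by -1.08, and as deposited each of these lost its call without at least 1 single array. The count ran from 3 to 29 as deposited and from 20 to 29 after quantile normalization when single arrays were left out. Falls over all 18417 genes ran from 31 to 2476 and from 1028 to 1633 in these fits. Histone genes of 1 family are near-identical, so that single members are uncertain. SLBP, the stem-loop binding protein that processes these transcripts, fell by 0.82.

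Genes of G2 and mitosis sat between the S phase list and the background at 12 h. All 34 measured were below 0 on both scales, at medians of -0.59 and -0.36, but 1 of 34 passed as deposited and 3 of 34 after quantile normalization, against 1.24% and 8.57% of all genes falling. AURKB, the kinase of the chromosomal passenger complex, was the one that passed as deposited (-0.73, adjusted p = 0.0384, limma), and it did not pass when any 1 of 7 of the 8 arrays was left out. CDK1, the kinase of mitotic entry, read 8.82, 8.59, 8.21 and 9.17 uninduced and 8.05, 9.08, 7.96 and 8.60 at 12 h of 3 ng, and the groups overlapped. Its difference was -0.28 ± 0.24 (SE, adjusted p = 0.569) and -0.04 after quantile normalization. CCNB1, cyclin B1, went from 11.03, 11.17, 10.90 and 11.54 to 10.37, 11.26, 10.49 and 10.76, a difference of -0.44 without a call on either scale. The count depended on the scaling and on 1 array: 25 of 34 were called lower without replicate 2 of 3 ng at 12 h, 22 of 34 with arrays centred on their medians and 34 of 34 without replicates 2 and 4. Of all 18417 genes, 2476, 3063 and 5668 were called lower in these fits, in that order. After quantile normalization the G2 and M count ran from 0 to 8 when single arrays were left out, where falls over all genes ran from 1028 to 1633. A p that misses the threshold here does not show that G2 and M genes were unchanged.

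**Figure D3:**
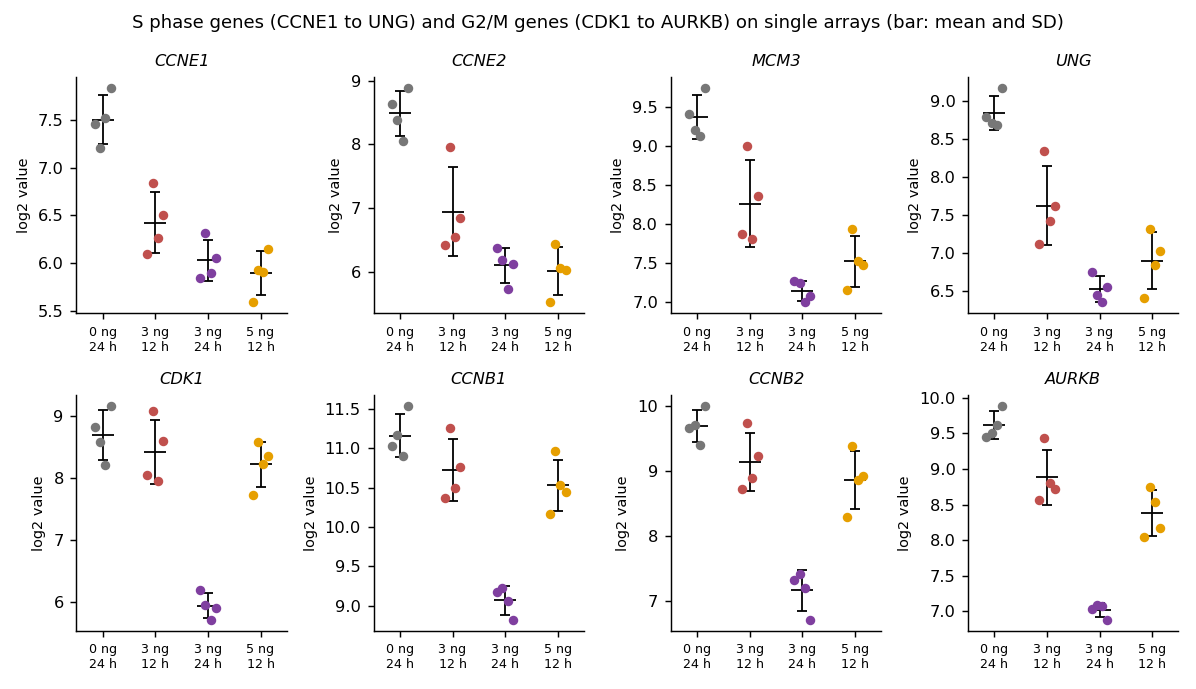
Log2 values, as deposited, of CCNE1, CCNE2, MCM3 and UNG (top, labelled S phase genes though UNG is not on that list) and 4 genes of G2 and mitosis (bottom) on single arrays in 4 groups, with mean and SD. The genes of the top row at 12 h of 3 ng lie below the uninduced arrays and replicate 2 is the highest of its group, while CDK1 and CCNB1 overlap the uninduced arrays at 12 h and drop by 24 h.

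The promoter windows of these 2 lists hold different letters. E2F sites were searched, after the values had been seen, as TTTCCCGC, TTTCGCGC, TTTGCCGC and TTTGGCGC on both strands, CHR elements as TTTGAA and CCAAT boxes as CCAAT, also on both strands. Of 34 S phase genes with a window 22 held an E2F site (64.7%), against 1 of 28 G2 and M genes (3.57%) and 5.51% of all tested genes. A CHR element stood in 19 of 28 G2 and M genes (67.9%) and in 1 of 34 S phase genes (2.94%), against 15.7% of all tested genes. CCAAT boxes were in 61.8% of S phase genes, 78.6% of G2 and M genes and 89.5% of histone genes, against 42.2% of all. Windows are shown for S phase genes that fell, with the E2F letters in capitals, and for CDK1, with the CHR letters in capitals. CDK1 is also the 1 G2 and M gene counted with an E2F site. In the window shown that site begins at -128 from the start, outside the printed stretch. In MCM6 each run of 12 capitals is 2 overlapping matches, 1 on each strand.
MCM6 (chr2:135876502-135876615, minus strand): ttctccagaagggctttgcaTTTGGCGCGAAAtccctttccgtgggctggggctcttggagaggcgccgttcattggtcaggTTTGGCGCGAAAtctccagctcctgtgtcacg
MCM3 (chr6:52284889-52284936, minus strand): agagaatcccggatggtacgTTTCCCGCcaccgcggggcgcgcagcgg
CDT1 (chr16:88803734-88803781, plus strand): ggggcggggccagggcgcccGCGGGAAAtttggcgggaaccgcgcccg
GINS2 (chr16:85688958-85689005, minus strand): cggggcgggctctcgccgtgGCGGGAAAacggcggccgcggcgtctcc
CDK1 (chr10:60778389-60778477, plus strand): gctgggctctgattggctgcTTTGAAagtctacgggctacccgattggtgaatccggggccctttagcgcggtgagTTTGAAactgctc
MCM6, a helicase subunit like MCM3, changed by -0.97 ± 0.23 (SE), CDT1, which loads that helicase, by -1.03 ± 0.24, and GINS2, of the GINS complex, by -0.79 after quantile normalization, and all 3 fell on both scales.

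From 12 h to 24 h of 3 ng, the direct test of time at this dose, G2 and M genes dropped and the early targets took different courses. As deposited 816 genes were called (4.43%), of which 803 fell (4.36%) and 13 rose (0.0706%), and after quantile normalization 1116 fell (6.06%) and 1827 rose (9.92%); rises were 1.59%, 62.1% and, with centred arrays, 44.4% of the calls, so the balance of directions is set by the scaling and 749 genes were called in 1 direction on both scales. All 34 G2 and M genes fell on both scales, at medians of -2.01 and -1.79 against -0.23 and 0.08 over all genes. CDK1 went to 6.20, 5.96, 5.71 and 5.90 at 24 h, below every array of 12 h, a change of -2.48 (adjusted p = 2.88e-06, limma), and CCNB1 changed by -1.65. The 5 largest falls, CDK1 with SPC25 (-2.54), KIF14 (-2.52), H2BC14 (-2.51) and HMGB2 (-2.45), are a kinetochore subunit, a mitotic kinesin, a histone and a chromatin protein beside the kinase. Of these 5, H2BC14 alone was called lower at 12 h as deposited (-1.02), a call lost when any 1 of 5 arrays was left out. Without replicate 2 of 3 ng at 12 h, HMGB2 (-0.89), KIF14 (-0.75) and SPC25 (-0.73) were called lower at 12 h too. CDK1 was called lower (-0.69) without replicates 2 and 4. Leaving out these bright arrays lowered the induced group as a whole. The first of these fits called 2476 genes lower and the second 5668, against 229 with all arrays, so these calls do not single out G2 and M genes.

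S phase genes went on falling, 34 of 39 as deposited and 35 of 39 after quantile normalization, at medians of -1.24 and -1.01, and 35 of 43 histone genes fell (36 after quantile normalization). Of all genes 4.36% fell as deposited and 6.06% after quantile normalization. The cyclins E were among the S phase genes with no further call as deposited: CCNE1 changed by -0.40 (adjusted p = 0.244) and -0.10 after quantile normalization, and CCNE2 by -0.84 (adjusted p = 0.105) and -0.58. FBXO5 and UNG, which are not on the S phase list, changed by a further -1.87 and -1.09.

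**Figure D4:**
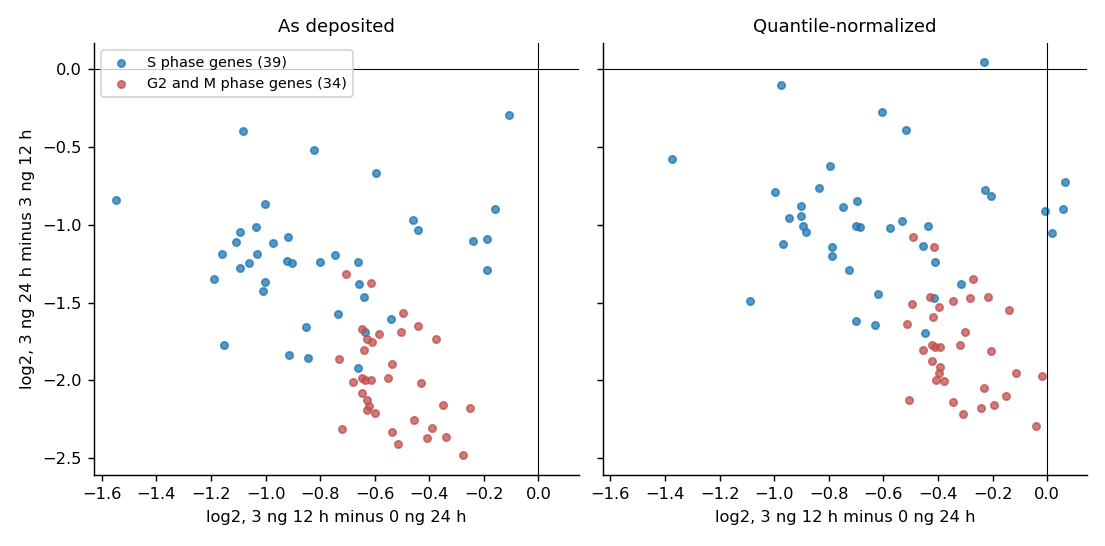
Each point is a gene of the S phase list (blue, 39) or the G2 and M list (red, 34): the horizontal axis is its log2 difference from uninduced cells at 12 h of 3 ng and the vertical axis its log2 change from 12 h to 24 h of 3 ng, as deposited (left) and quantile-normalized (right). The axes share the 12 h arrays. Red points lie lower than most blue points in both panels, and further right on the whole.

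Of the p53 targets, 11 of 111 fell from 12 h to 24 h and none rose as deposited, where 4.36% of all genes fell and 0.0706% rose. Their median was -0.22, close to that of all genes. After quantile normalization 15 of the 111 fell and 18 rose, where 6.06% of all genes fell and 9.92% rose. APAF1 dropped back most among the named targets that had risen by 12 h, from 9.12 ± 0.28 at 12 h to 8.02 ± 0.17 (SD, n = 4) at 24 h, a change of -1.10 as deposited and -0.87 after quantile normalization (adjusted p = 3.87e-07, limma), and this call held without each single array. FAM13C changed by -0.80 and -0.55. SESN1 changed by -0.70 (adjusted p = 0.0294) and -0.45, and POLH by -0.60 and -0.40, but as deposited each of these lost its call when any 1 of 5 arrays was left out and with centred arrays. FRMD8, a FERM domain protein, changed by -0.66, a call lost with centred arrays. CDKN1A changed by -0.25 (adjusted p = 0.372) and TP53I3 by 0.21 (adjusted p = 0.408), the latter called at 0.38 after quantile normalization. In the other direction CRYAB rose by a further 1.11 ± 0.26 (SE) and CLCA2 by 0.76 ± 0.17. IL6, the cytokine, and MIR22HG, the host transcript of miR-22, were not called at 12 h as deposited (0.05 and 0.06; IL6 was, at 0.28, after quantile normalization) and rose by 0.67 and 0.68 from 12 h to 24 h; MIR22HG lost that call when any 1 of 5 arrays was left out. TM7SF2, a sterol reductase, rose by 0.98 by 12 h and by a further 0.70. In the fit of the 2 groups alone SESN1, POLH, FRMD8, IL6, MIR22HG and TM7SF2 were not called between 12 h and 24 h.

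At 12 h, 5 ng against 3 ng is the direct test of dose. As deposited 4 genes were higher (0.0217%) and none lower by limma's adjusted p, while 1082 genes had an unadjusted p under 0.05, 813 of them lower at 5 ng. After quantile normalization 506 were called (2.75%), 428 higher (2.32%) and 78 lower (0.424%), and with centred arrays 203 and 3. The 4 genes were PALMD (1.35), LCE1F (1.02), ARRB1, beta-arrestin 1 (0.90), and FRMD8 (0.80). FRMD8 read 9.20, 9.47, 9.43 and 9.50 at 3 ng and 10.08, 10.27, 10.26 and 10.19 at 5 ng. PALMD read 5.96, 6.43, 6.04 and 6.58 at 3 ng and 7.36, 7.45, 7.68 and 7.90 at 5 ng. Neither pair of groups overlapped, but all 4 calls were lost in the fit of the 2 groups alone. No gene was called without replicate 1 or 3 of 3 ng, or without replicate 1 or 4 of 5 ng. PALMD, FRMD8 and ARRB1 lost their calls in most fits without a single array. They also lost them with the replicate number as a block (adjusted p = 0.0646, limma). All 4 were called after quantile normalization. The p53 target lists had a median of 0.15 between doses as deposited and 0.19 quantile-normalized, with 25 of 111 called higher on the second scale, among them TP53I3 (0.51), TP53INP1 (0.51), APAF1 (0.50) and CDKN1A (0.29). Of 39 S phase genes 11 were lower at 5 ng on that scale, CCNE2 by 0.86 and CCNE1 by 0.41, and none of 34 G2 and M genes was. With 5 ng at 12 h CDK1 stood at 8.23 ± 0.36 (SD, n = 4), against 8.42 ± 0.52 at 3 ng.

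Gene groups outside the cell cycle and the p53 lists held at most 2 calls each at 12 h of 3 ng as deposited, apart from the keratinocyte list and the 24 h leaders, but more after quantile normalization, where 15.2% of all genes were called. Of 23 ribosome biogenesis genes none was called as deposited, and 1 rose and 9 fell after quantile normalization, at medians of -0.39 and -0.16. All 15 cholesterol synthesis genes on the list, which does not hold TM7SF2, were below 0, and 2 fell as deposited: INSIG1, the sterol-sensing retention protein, by 0.90 and DHCR7, the last reductase of the pathway, by 0.76. After quantile normalization 7 fell, where 8.57% of all genes did. From 12 h to 24 h 11 of the 15 rose on that scale, where 9.92% of all genes did, with none called higher as deposited. Among 22 immediate early and MAPK feedback genes DUSP6, a phosphatase of ERK, changed by -0.73 and ETV5, an ETS factor downstream of ERK, by -0.55 as deposited, each call lost with any 1 of at least 4 arrays left out. After quantile normalization 4 of these 22 rose and 3 fell, at a median of 0.03. Fresh medium and time since plating differ between a culture of 12 h and of 24 h, and their part in these values was not tested.

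Of 17 circadian clock genes NPAS2 changed by -0.55 as deposited, with 1 rise and 2 falls after quantile normalization. ID1, an inhibitor of differentiation factors, was the single call of 15 MYC and proliferation-linked factors at -0.86, CASP2, the caspase of the PIDDosome, that of 10 caspases and inhibitors at -0.62, and BAK1, a partner of BAX, that of 13 BCL2 family genes outside the p53 lists at 0.65. The first 3 of these 4 lost their call without some single arrays, and BAK1 did in the fit of the 8 arrays alone. After quantile normalization 1 MYC and proliferation-linked factor rose and 1 fell, 2 caspases or inhibitors rose and 1 fell, and 2 BCL2 family genes rose. No call was made as deposited among 16 unfolded protein and integrated stress genes, 15 glucose and hypoxia genes, 17 NF-kB targets and 19 interferon-stimulated genes. After quantile normalization these had 7 rises and 2 falls, 2 rises and 1 fall, 4 rises and 3 falls, and no call, respectively. Interferon-stimulated genes spread widely within groups: IFIT1 read 9.58, 7.38, 7.55 and 8.28 uninduced and 8.21, 6.95, 6.33 and 7.16 induced, with replicate 1 the highest in both.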

How the data were processed

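RNA of B5/589 cells was hybridised to whole-transcript arrays, 20 in all and 4 per group. The deposited table holds log2 values; per the submitters' processing notes GCOS, GCRMA, Affymetrix Power Tools and limma were used, with versions and background steps not given in the sources used here. Of 33297 transcript clusters, 19460 had 1 symbol, 1754 several and 12083 no listed gene; 19429 were matched by Entrez identifier, and the brightest cluster stood for a gene, giving 18417. Limma 3.58.1 (R 4.3.3) fitted 1 mean per group over 20 arrays (15 residual degrees of freedom), with Benjamini-Hochberg adjustment. Quantile normalization of all clusters was computed beside the deposited values. On simulated data the step was tested over 18417 genes.

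Members and lists were chosen with earlier results of these data known. Named genes were a panel of p53 targets, the 15 largest rises and falls called on both scales without overlap, up to 4 called genes per list, and the 5 largest of each sign in the direct comparisons; DDB2, XPC, LPIN1, FANCC, SLBP, IFIT1, MCM6, CDT1, GINS2 and the epithelial and other markers were named after their values were seen, as were BLNK's and the E2F windows. Alternatives covered scaling, filtering, the arrays fitted and single arrays left out. Same-numbered arrays of the 2 groups had deviations that correlated at 0.001 to 0.072, so they were not treated as pairs. The number of arrays limits the precision.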

Additional observations from a re-analysis of the deposited data

Results flagged for a closer look

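Among 85 named genes in 2 groups, 170 groups of 4 arrays were tested for an array far from the rest, and chance flags about 1 group in 20; 4 were found. FAM111B had its highest array of 3 ng at 12 h at 8.76, with the next at 7.72, on replicate 2. LCE1C at 10.07 (next 9.58) and LCE1F at 8.09 (next 7.75) had theirs on replicate 4 of the same group. PALMD had its highest uninduced array at 3.98, with the next at 3.31.

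Named genes called at 12 h whose log2 level at 3 ng then differed between 24 h and 12 h by limma's adjusted p, on the deposited scale and in the same direction after quantile normalization, fell into these groups. The early rises that were lower at 24 h were APAF1 (-1.10), SESN1 (-0.70), FAM13C (-0.80), POLH (-0.60) and FRMD8 (-0.66), and those that were higher were CLCA2 (0.76), CRYAB (1.11), LCE1F (0.63) and TM7SF2 (0.70). The falls that were lower still at 24 h were AURKB (-1.86), DTL (-1.35), FAM111B (-1.16), FBXO5 (-1.87), MCM3 (-1.11), ORC1 (-1.05), POLE2 (-1.77), PRIM1 (-1.28), UHRF1 (-1.19), UNG (-1.09), WDR76 (-1.30) and the histone genes H2AC15 (-1.65), H2AC17 (-1.17), H2BC14 (-2.51), H3C12 (-1.28) and H4C13 (-1.86). As deposited, FAM111B lost this call with centred arrays, without replicate 2 of 3 ng at 12 h and without replicate 3 of 3 ng at 24 h, ORC1 and H3C12 lost it without replicate 2 of 3 ng at 12 h, LCE1F without replicate 3 of 3 ng at 24 h, and H2AC17 when any 1 of 4 arrays was left out. SESN1, POLH, FRMD8, LCE1F and TM7SF2 lost it in the fit of the 2 groups alone. At 12 h, ARRB1 (0.90), FRMD8 (0.80), LCE1F (1.02) and PALMD (1.35) were higher at 5 ng than at 3 ng. None of these calls held without replicate 1 or 3 of 3 ng, or without replicate 1 or 4 of 5 ng. None held in the fit of the 2 groups alone.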

How the results depend on the processing

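For 3 ng at 12 h against uninduced cells, 519 genes were called as deposited (290 higher, 229 lower), against 2797 after quantile normalization (1218 and 1579), 3620 with arrays centred on their medians (557 and 3063), 947 without the dimmest 30% of genes (599 lower), 1118 with limma's trend and robust options (745 lower), and 232 with only the 8 arrays fitted (183 and 49). The cause of the spread in falls was not tested. Single arrays left out gave 257 to 2782 calls, 187 to 328 higher and 31 to 2476 lower. Added after seeing the data, the fit without replicates 2 and 4 of 3 ng at 12 h gave 5904 calls (5668 lower), and quantile normalization without each single array gave 2392, 2046, 2834, 2018, 2166, 2869, 2309 and 2062.

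For 24 h against 12 h at 3 ng, 816 calls became 2943 after quantile normalization (1827 higher), with 392 higher and 491 lower when centred; the 13 rises became 23 without dim genes, 25 with trend and robust options and 5 with the 2 groups alone. Single arrays left out gave 484 to 1395 calls, 5 to 15 higher and 469 to 1387 lower. For 5 ng against 3 ng at 12 h, 4 calls became 506 (428 higher, 78 lower) quantile-normalized, 206 (203 and 3) centred, 23 (all higher) without dim genes, 32 (31 and 1) with trend and robust options, 0 with the 2 groups alone, and 0 to 11 with single arrays left out, none of them lower. With the replicate number as a block, which the deviations did not bear out as a pairing, there were 398 falls in the first comparison, 20 rises in the second and 2 rises in the third. In the first, the block called lower 3 interferon-stimulated genes and 2 NF-kB targets where none was called without it, 4 ribosome biogenesis genes against 0, 5 cholesterol genes against 2, 6 G2 and M genes against 1 and 23 histone genes against 15.

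Sign changes were of small values. IL6 (0.05) became -0.028 centred and ran from -0.051 (without replicate 2 of the uninduced group) to 0.147 without single arrays, with -0.040 without replicate 2 of 3 ng at 12 h and -0.16 without the bright pair. MIR22HG (0.06) became -0.025 centred, -0.045 without replicate 2 and -0.055 without replicate 4 of 3 ng at 12 h, and -0.26 without both. PMAIP1 (-0.05) became 0.18 quantile-normalized, and ran from -0.172 to 0.068 without single arrays, positive without replicate 3 of 3 ng at 12 h (0.068) and replicates 1 (0.058) and 4 (0.032) of the uninduced group. Without the bright pair BBC3 became -0.095 and GADD45A -0.038. Over the named genes and alternatives of the first 2 comparisons, a call was lost 146 times and gained 16 times, as against 1656 values with no change of call or direction. The comparison of doses is not in these counts.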

Other observations

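Further rises at 12 h of 3 ng, chosen after their values were seen and outside every list, follow. PLTP, the phospholipid transfer protein, went from 7.43 ± 0.29 to 9.40 ± 0.22 (SD, n = 4), a log2 difference of 1.97 ± 0.15 (SE; adjusted p = 2.01e-08, limma). ABHD4, a lipase that makes precursors of N-acyl ethanolamines, rose by 1.89 and ACER2, an alkaline ceramidase of the Golgi, by 1.84 (adjusted p = 5.32e-07, limma). CYP4F3 and CYP4F2, hydroxylases of leukotrienes and fatty acids, rose by 1.84 and 1.75, but they are near-identical copies whose probes may share signal. From 12 h to 24 h of 3 ng PLTP rose by a further 0.57 as deposited and CYP4F3 changed by -0.71. CEACAM1, a cell adhesion molecule, rose by 2.33 ± 0.15 (SE) by 12 h, PADI4, a peptidyl arginine deiminase, by 1.86, and ZNF750, a transcription factor of epidermal differentiation, by 1.74 with a change of -0.91 by 24 h.

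E2F7, a repressor of E2F targets and itself on the arrest list, differed by -0.14 from uninduced cells at 12 h of 3 ng (adjusted p = 0.68, limma) and by -1.11 between 24 h and 12 h.

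Of the 12083 transcript clusters without a listed gene, 29 were higher and 7 lower at 12 h of 3 ng as deposited, and 143 and 132 after quantile normalization. The largest rise among them was 3.65 and the largest fall -2.58, and 23 rose by at least 2-fold.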
